A study of Homo sapiens with 4 samples.

Results

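Binding of the transcription factor TEAD4 was examined in olfactory receptor gene clusters, whose genes are used mainly in the olfactory epithelium, in chromatin immunoprecipitation sequencing (ChIP-seq) peak lists of 2 human gastric cancer cell lines. The members were the TEAD4 peaks whose midpoint lay in 1 of 6 clusters given by position on hg19: chr11:4380000-6250000 (band 11p15.4), chr11:55000000-56600000 (11q11 to 11q12.1), chr11:57750000-58300000 (11q12.1), chr11:123600000-124450000 (11q24.1 to 11q24.2), chr1:247600000-248900000 (1q44) and chr6:29000000-29560000 (6p22.1). They were chosen by position. The clusters span 6.73 Mb and held 49 peaks of the 51017 in both lists, 37 of 39477 in MKN28 and 12 of 11540 in SNU216. Both are established gastric cancer lines for which the labels name no treatment, and each gave 1 library made with a TEAD4 antibody and 1 input library without antibody. Each peak list was called by the authors for 1 TEAD4 library against the input of its own line. There were no replicates, so no difference has a replicate check and no p-value is given. The 95% intervals are exact Poisson or binomial ones that cover counting error only and treat neighbouring peaks as independent. Sequencing depth is unknown, because the lists hold positions and a score but no reads. No expression, histone mark or accessibility was measured, so whether the clusters were silent in these lines was not tested.

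Olfactory receptors are odorant-detecting G protein-coupled receptors, the largest gene family of the human genome, arranged in tandem arrays that arose by duplication. Each olfactory sensory neuron uses a single receptor gene, and in most other cell types the arrays are held in compact, repressed chromatin. TEAD4 is a DNA-binding protein that recruits YAP and TAZ, the co-activators controlled by the Hippo pathway, mostly at distal enhancers in open chromatin of epithelial cells. RefSeq (GRCh38.p14) lists 376 olfactory receptor genes and pseudogenes on chromosome 11, 96 on chromosome 1 and 38 on chromosome 6, of which 171, 61 and 17 are protein-coding. By gene order in that annotation, the arrays are not made of receptors alone. The beta-globin genes HBB, HBD, HBG1, HBG2 and HBE1, which encode haemoglobin chains, stand between OR51V1 and OR51B4 on chromosome 11. TRIM5, TRIM6, TRIM22 and TRIM34, which encode antiviral tripartite-motif proteins, stand between OR52B6 and OR52N4. No hg19 annotation was used here, so no peak was assigned to a gene.

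The letters that TEAD proteins recognise were about as frequent just before olfactory receptor genes as just before other genes. GGAATG or its reverse complement CATTCC, the core of the TEAD element, was searched on both strands in the 250 bases before the RefSeq start. The receptor genes were taken by name and chromosome, not by position in the 6 clusters, so some may lie outside them. Cluster sequence away from these promoters was not searched, so the supply of such sites in the clusters is not known from this. Of the 249 protein-coding olfactory receptor genes on chromosomes 1, 6 and 11, 206 had a promoter in the RefSeq table and were searched. The core was present in 24 of these 206 (11.7%), in 10.9% of 4768 promoters of the other protein-coding genes of these chromosomes and in 11.9% of all 35116 promoters. The base composition was different. The median GC content was 37.0% before olfactory receptor genes and 61.2% before the other protein-coding genes, and the median number of CpG dinucleotides was 1 and 16. Of the receptor promoters, 2 held more than 1 match, and they are shown because they carry the most matches on chromosomes 1 and 11. On chromosome 6, 0 of 15 receptor promoters held a match. The sequences are from RefSeq on GRCh38.p14, both on the plus strand, OR2G3 at chr1:247605336-247605585 with 3 matches, of which a pair shares 1 base, and OR10D3 at chr11:124183095-124183344 with 2. Capitals mark the matches. These coordinates are not on the build of the peak lists and were not compared with them.
OR2G3: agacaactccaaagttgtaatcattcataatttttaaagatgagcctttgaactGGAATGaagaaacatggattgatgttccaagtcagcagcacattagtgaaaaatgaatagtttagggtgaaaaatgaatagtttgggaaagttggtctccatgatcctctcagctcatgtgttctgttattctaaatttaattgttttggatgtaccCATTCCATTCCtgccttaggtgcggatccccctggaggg
OR10D3: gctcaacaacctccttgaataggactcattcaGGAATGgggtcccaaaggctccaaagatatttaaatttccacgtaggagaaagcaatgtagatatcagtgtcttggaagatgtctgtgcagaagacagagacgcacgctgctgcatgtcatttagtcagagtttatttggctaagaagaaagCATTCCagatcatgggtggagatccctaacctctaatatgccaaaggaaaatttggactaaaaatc

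TEAD4 peaks were sparse in the olfactory receptor clusters of both lines. MKN28 had 5.50 peaks per Mb in the 6 clusters (95% interval 3.87 to 7.58), against 16.01 per Mb in the rest of chromosomes 1, 6 and 11, which held 8320 peaks in 519.5 Mb. The ratio of densities was 0.343 (0.242 to 0.474). SNU216 had 1.78 peaks per Mb in the clusters (0.921 to 3.11), against 4.95 per Mb in the rest, with 2574 peaks. Its ratio was 0.360 (0.186 to 0.630). Centromeric, variable and stalk bands were left out of the rest. Chromosome 11 carries 4.87 of the 6.73 Mb of clusters, and its own rest was denser, at 17.6 MKN28 and 5.88 SNU216 peaks per Mb. Against that rest, the ratio of the chromosome 11 clusters was 0.303 (0.197 to 0.445) in MKN28 and 0.349 (0.167 to 0.646) in SNU216. MKN28 peaks covered 0.312% of the cluster sequence and 0.914% of the rest, and SNU216 peaks covered 0.0687% and 0.223%. The clusters held 0.0937% of the MKN28 list and 0.104% of the SNU216 list, a ratio of shares of 1.11 with an interval of 0.527 to 2.18. A difference between the lines in either direction thus could not be told from counting error.

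**Figure D1:**
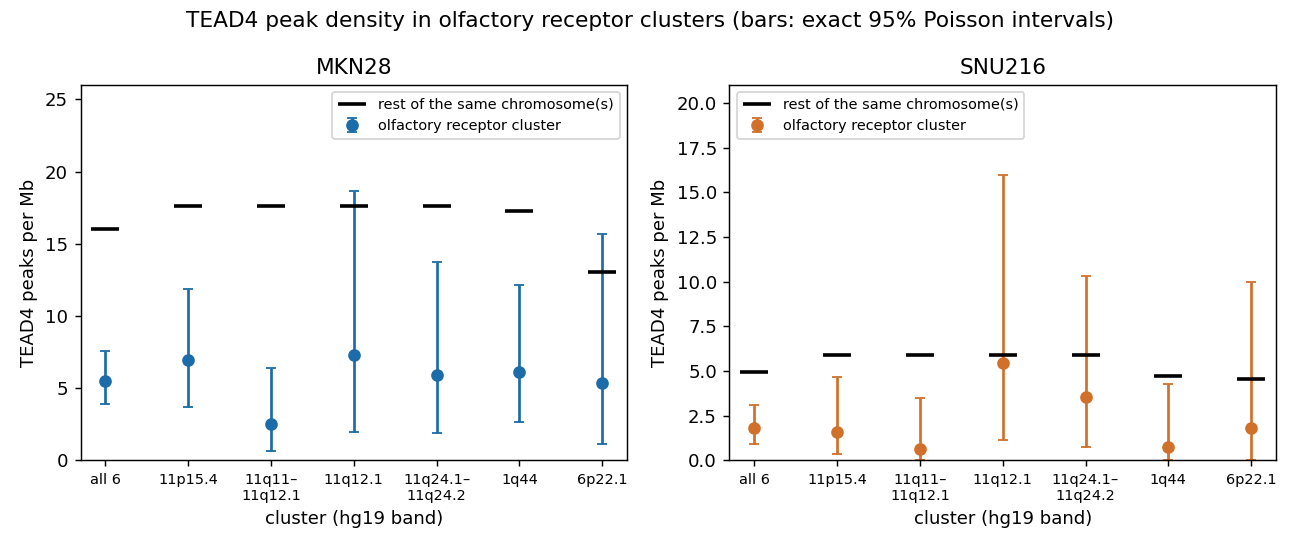
TEAD4 peaks per Mb (vertical axis) in all 6 olfactory receptor clusters together and in each one (horizontal axis), in MKN28 and SNU216. Points are clusters with exact 95% Poisson intervals and black dashes are the rest of the same chromosome or chromosomes. All points lie below their dash, but the interval reaches the dash for 11q12.1 and 6p22.1 in MKN28 and for 11q12.1, 11q24.1 to 11q24.2 and 6p22.1 in SNU216.

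The ratio was below 1 in each of the 6 clusters and in both lines. In MKN28 it ran from 0.142 (0.0386 to 0.364) in 11q11 to 11q12.1, with 4 peaks in 1.60 Mb, to 0.413 (0.112 to 1.06) in 11q12.1, with 4 peaks in 0.55 Mb. The cluster of 6p22.1 was near that upper end, at 0.411 (0.0847 to 1.203) on 3 peaks. In SNU216 the ratio ran from 0.106 (0.00269 to 0.594) in 11q11 to 11q12.1, on 1 peak, to 0.928 (0.191 to 2.72) in 11q12.1, on 3 peaks. The MKN28 intervals of 11q12.1 and 6p22.1 held 1, and so did the SNU216 intervals of 11q12.1, 11q24.1 to 11q24.2 and 6p22.1. The other clusters had intervals below 1. The cluster of 11q11 to 11q12.1 includes 0.7 Mb of a centromeric band, a kind of band left out of the rest. Its other 0.9 Mb held 3 MKN28 peaks, a ratio of 0.189 (0.0390 to 0.554), and 1 SNU216 peak, a ratio of 0.189 (0.00478 to 1.06). The SNU216 interval then held 1, and the lowest SNU216 ratio was that of 1q44, 0.162 (0.00410 to 0.906). Over all 6 clusters without centromeric sequence the ratio was 0.373 (0.261 to 0.517) in MKN28 and 0.402 (0.207 to 0.703) in SNU216. The order of the clusters was not resolved within either line, since every interval shared values with that of every other cluster.

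Windows as poor in peaks as a single cluster were not rare on the same chromosomes. Each chromosome was divided into windows of the cluster's own length, leaving out windows that touched a cluster or a centromeric, variable or stalk band. The cluster of 11q11 to 11q12.1 held 4 MKN28 peaks, and 11.8% of 76 windows held as few (median 28 peaks), and its 1 SNU216 peak compared with 9.21% of windows (median 7.5). The windows hold no centromeric band, and for the 0.9 Mb of this cluster outside that band the shares were 16.7% of 138 windows in MKN28 and 24.6% in SNU216, an alternative added after seeing the data. In 11p15.4, 18.8% of 64 windows held no more than its 13 MKN28 peaks and 17.2% no more than its 3 SNU216 peaks. In 1q44, the shares were 18.5% of 173 windows for its 8 MKN28 peaks and 22.5% for its 1 SNU216 peak. In 11q24.1 to 11q24.2, they were 25% of 144 windows for 5 MKN28 peaks and 46.5% for 3 SNU216 peaks. The small clusters lay well within the range of other windows. In 6p22.1, 36.5% of 293 windows held no more than its 3 MKN28 peaks and 50.5% no more than its 1 SNU216 peak. For SNU216, 74 of these windows held 0 peaks and the median held 1, so even an empty cluster would not have stood out. In 11q12.1, the shares were 32.3% of 226 windows for 4 MKN28 peaks and 60.6% for 3 SNU216 peaks, where the median window held 2.

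**Figure D2:**
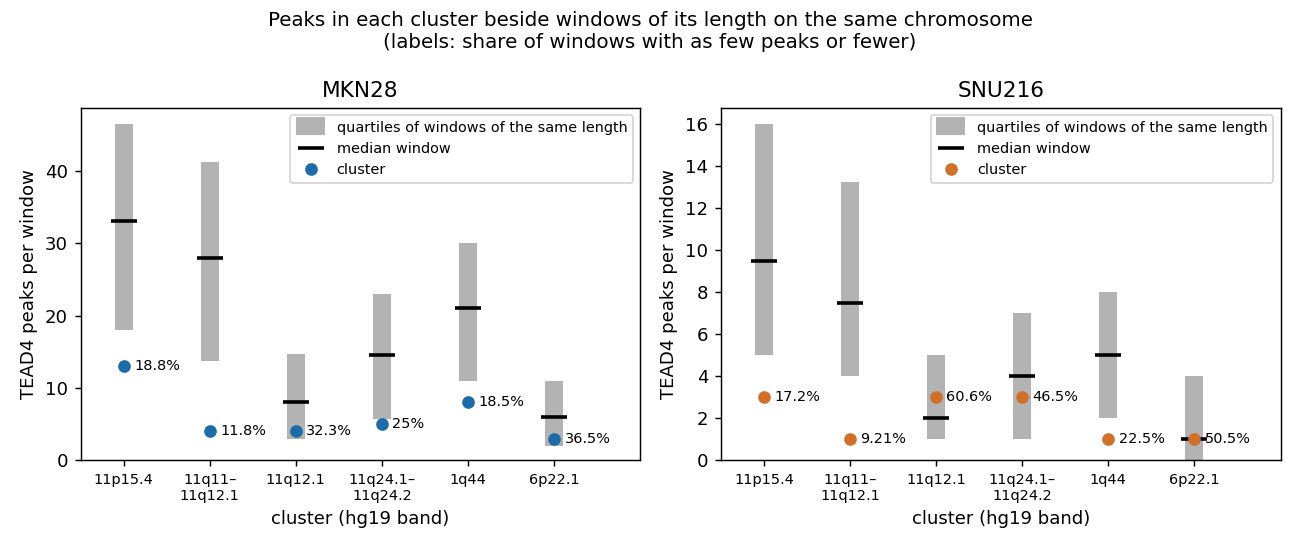
Number of TEAD4 peaks (vertical axis) in each olfactory receptor cluster (coloured points) beside windows of the same length on the same chromosome (grey bars are quartiles, black dashes medians), in MKN28 and SNU216. The label gives the share of windows with as few peaks or fewer, from 11.8% to 36.5% in MKN28 and from 9.21% to 60.6% in SNU216. The cluster of 11q11 to 11q12.1 is drawn with its centromeric part, which the windows lack.

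In the cluster of 11p15.4, which carries the globin and TRIM genes among its receptors, most MKN28 peaks stood close together. Of its 13 MKN28 peaks, 8 lay in 101 kb (chr11:5617111-5717908) and 2 of its 3 SNU216 peaks lay there too. Without that stretch, which was picked out after the positions were seen, the cluster held 5 MKN28 peaks, 2.83 per Mb, and 1 SNU216 peak. The strongest peak of all 37 was elsewhere in this cluster, at chr11:5385361-5386080 with a score of 839, rank 1172 of the MKN28 list. The next by score were at chr11:4505509-4506031 (319.5) and, inside the dense stretch, at chr11:5641684-5642800 (196). SNU216 had no peak at any of these 3 places. The other SNU216 peak of this cluster, at chr11:5228533-5228866, scored 58.3 and lay 157 kb from the nearest MKN28 peak.

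The cluster of 11q11 to 11q12.1 begins in a centromeric band, which takes 0.7 Mb of it. MKN28 had its strongest peak there at chr11:55301924-55302530, with a score of 372, and 1166 kb separated it from the nearest SNU216 peak. The other MKN28 peaks scored 156 (chr11:56594713-56595362, 4.96 kb from the upper edge), 78.7 and 51.1. The only SNU216 peak, at chr11:56467780-56468149, scored 105 and overlapped an MKN28 peak. The first 1468 kb of the cluster held no SNU216 midpoint, and the longest MKN28 stretch without one was 675 kb. Over chromosomes 1, 6 and 11, 0.861% of 8360 distances between neighbouring MKN28 peaks were as long as that stretch. It was picked as the longest of its cluster. For the MKN28 gap around the longest stretch of each other cluster, the shares ran from 1.28% (11p15.4) to 5.01% (6p22.1).

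In 11q12.1 the 3 SNU216 peaks and 2 of the 4 MKN28 peaks lay close together. At chr11:58161609-58162175 MKN28 had a score of 611, and at chr11:58161590-58162183 SNU216 had 257, the highest score of the 12 SNU216 members and rank 1512 of its list. The midpoints of these peaks differed by 5 bp. A weaker pair lay just below, with MKN28 at 73.6 (chr11:58160210-58160760) and SNU216 at 133 (chr11:58160268-58160708), and their midpoints differed by 3 bp. A SNU216 peak with a score of 57.04 stood 1.04 kb from that MKN28 peak, at chr11:58159266-58159630. The remaining MKN28 peaks scored 149 and 68.0 and lay 8.09 and 1.997 kb from the cluster's edges. MKN28 had no midpoint in the 408 kb between the last of these and the paired peaks.

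The clusters of 11q24.1 to 11q24.2 and of 1q44 had peaks in both lists but none in common. Over the whole lists, 17.1% of MKN28 peaks and 59.3% of SNU216 peaks overlapped the other list. Among all SNU216 peaks scoring from 53.73 to 58.45, where the SNU216 peaks of these clusters fall, the share was 31.6%. In 11q24.1 to 11q24.2, the 5 MKN28 peaks scored from 53.5 to 146, led by chr11:124155490-124156294 (146), chr11:123643675-123644270 (102) and chr11:123949239-123949681 (82.1). Its SNU216 peaks scored 53.7 (chr11:123652793-123653109), 56.4 (chr11:124370798-124371050) and 58.5 (chr11:124406447-124406775), and the closest was 8.98 kb from an MKN28 peak. In 1q44, the 8 MKN28 peaks scored from 59.8 to 186. The strongest were at chr1:248005621-248006256 (186), chr1:247909841-247910284 (149) and chr1:247905049-247905970 (94.1). SNU216 had 1 peak in 1q44, at chr1:248480025-248480361, with a score of 57.5 and 11.1 kb from the nearest MKN28 peak.

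The cluster of 6p22.1 lies next to a dense part of chromosome 6. Its MKN28 peaks scored 349 (chr6:29415406-29416004), 283 (chr6:29110037-29110502) and 51.6 (chr6:29170715-29171065). The SNU216 peak at chr6:29110167-29110551 scored 152 and overlapped the MKN28 peak there over 336 bp. The cluster's density was 5.36 per Mb in MKN28 and 1.79 in SNU216. The 1 Mb directly below it held 41 MKN28 and 20 SNU216 peaks, and the stretch from 26 to 28 Mb, which carries the large histone gene cluster, held 48.0 per Mb (38.9 to 58.6) in MKN28 and 31.5 per Mb (24.2 to 40.3) in SNU216. The intervals of cluster and histone stretch did not meet in either line. The histone stretch was dense for its chromosome, as the rest of chromosome 6 held 13.0 MKN28 and 4.54 SNU216 peaks per Mb. Against that rest, the interval of the cluster's ratio held 1 in both lines. The 1 Mb above the cluster held 17 MKN28 and 6 SNU216 peaks.

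**Figure D3:**
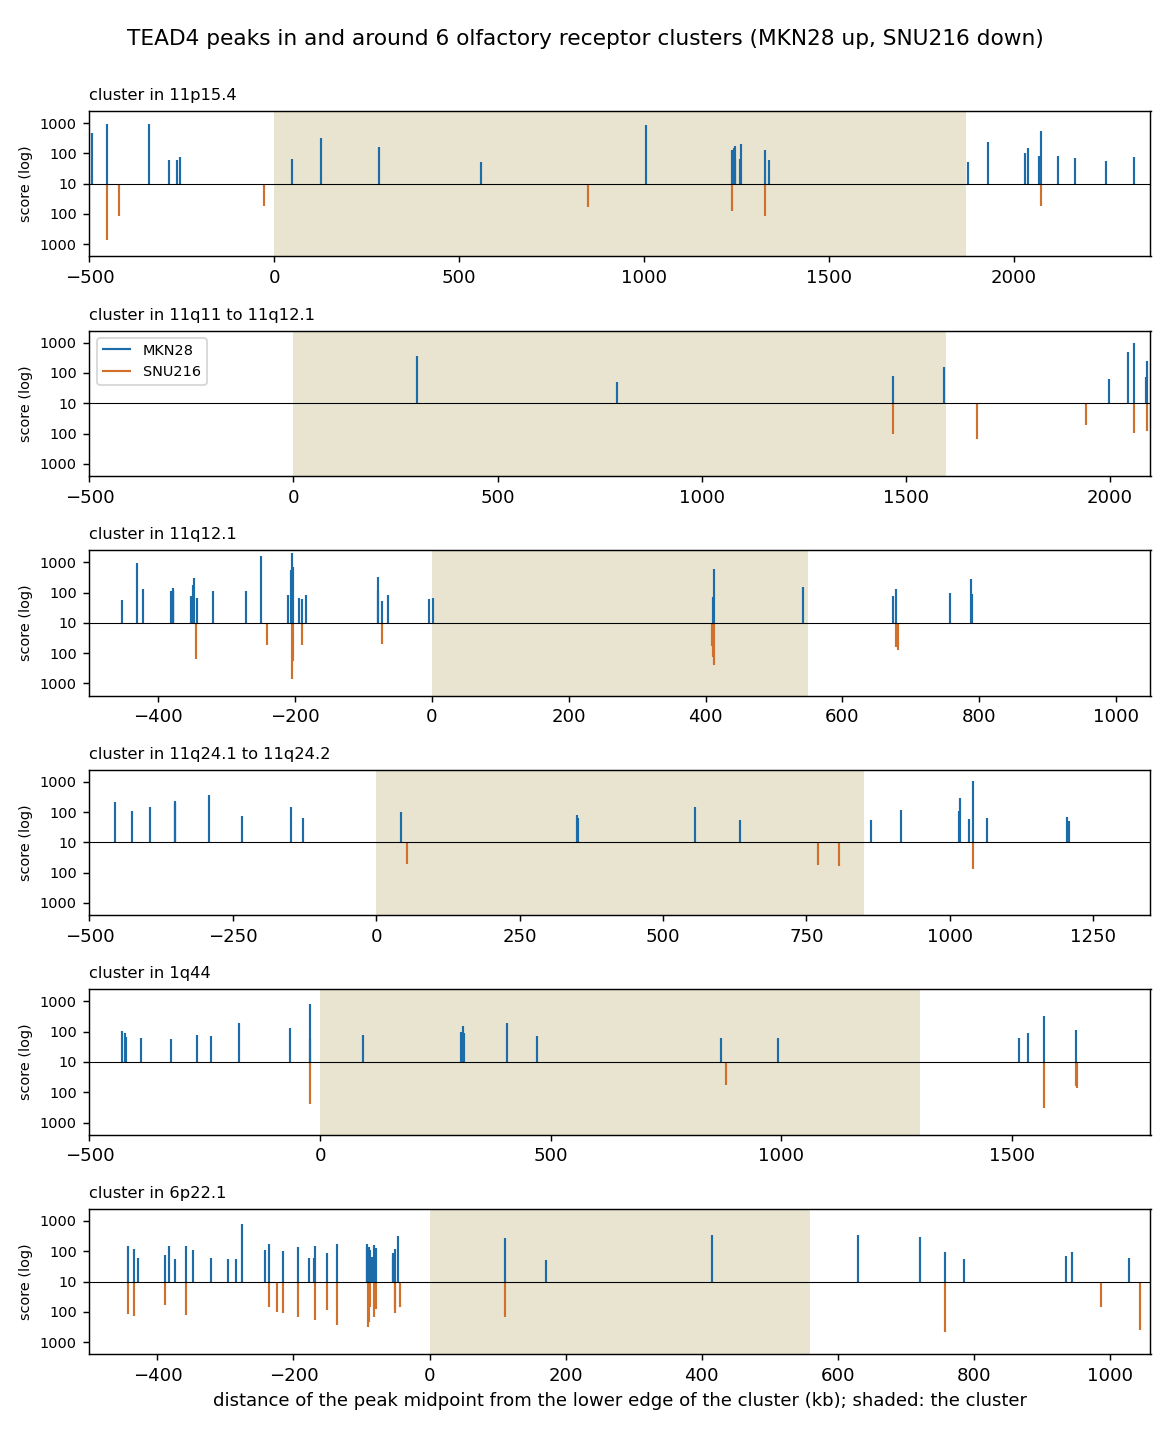
TEAD4 peaks in the 6 olfactory receptor clusters (shaded) and 500 kb on each side, by distance from the cluster's lower edge in kb (horizontal axis), with MKN28 drawn upward and SNU216 downward. The length of a line is the peak's score on a log axis that starts at 10, and the groups of peaks in 11p15.4 and 11q12.1 and the dense side of 6p22.1 can be seen.

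Sites found in both lines made up 6 pairs. An overlap of at least 1 bp was found for 6 of the 37 MKN28 members (16.2%, 6.19 to 32.0), against 17.1% of the whole MKN28 list, and for 6 of the 12 SNU216 members (50%, 21.1 to 78.9), against 59.3% of the whole SNU216 list. Both shares were near those of their lists. The pairs were in 4 of the 6 clusters, with 5 on chromosome 11 and 1 on chromosome 6. Besides those described, they were in 11p15.4, where MKN28 scored 133 (chr11:5617111-5617719) and SNU216 80.4 (chr11:5617155-5617588), and MKN28 scored 132 (chr11:5705964-5706577) and SNU216 116 (chr11:5706100-5706564). The last was in 11q11 to 11q12.1, with an MKN28 score of 78.7 (chr11:56467604-56468283) beside the SNU216 score of 105. Midpoints of the 6 pairs differed by 3 to 89 bp. The strongest MKN28 member had no SNU216 partner. A peak missing from a list did not reach the threshold used by the authors and may still be occupied.

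Score and width of the cluster peaks were set beside those of the rest, with intervals on the ratio of medians. The median score of the 37 members was 94.1 (quartiles 65.1 and 161), against 103 (66.1 and 205) in the rest of chromosomes 1, 6 and 11, and the median width was 551 bp against 534 bp. The ratio of medians was 0.915 (0.689 to 1.45) for score and 1.03 (0.873 to 1.14) for width. Of the 37 members, 18 had a score of at least 100 (48.6%, 31.9 to 65.6), against 49.9% of the whole list. Scores of 500 or more were held by 2 of the 37, against 3093 of the 39477 peaks of the whole list. In SNU216, the median score of the 12 members was 69.4 (57.4 and 121), against 90.4 (62.0 and 167) in the rest, and the median width was 367.5 bp against 416 bp. The ratio of medians was 0.768 (0.631 to 1.47) for score and 0.883 (0.791 to 1.06) for width, and both intervals held 1. Of the 12 members, 5 had a score of at least 100 (41.7%, 15.2 to 72.3), against 42.2% of the whole list. The SNU216 members fell into separate ranges of score. The 6 that overlapped an MKN28 peak scored from 80.4 to 257, and the 6 that did not scored from 53.7 to 58.5, close to the lowest score of the list, 50.01. Their widths were 370 to 594 bp and 253 to 365 bp. In MKN28 the ranges overlapped, at 73.6 to 611 for the 6 peaks with a partner and 51.1 to 839 for the 31 without.

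**Figure D4:**
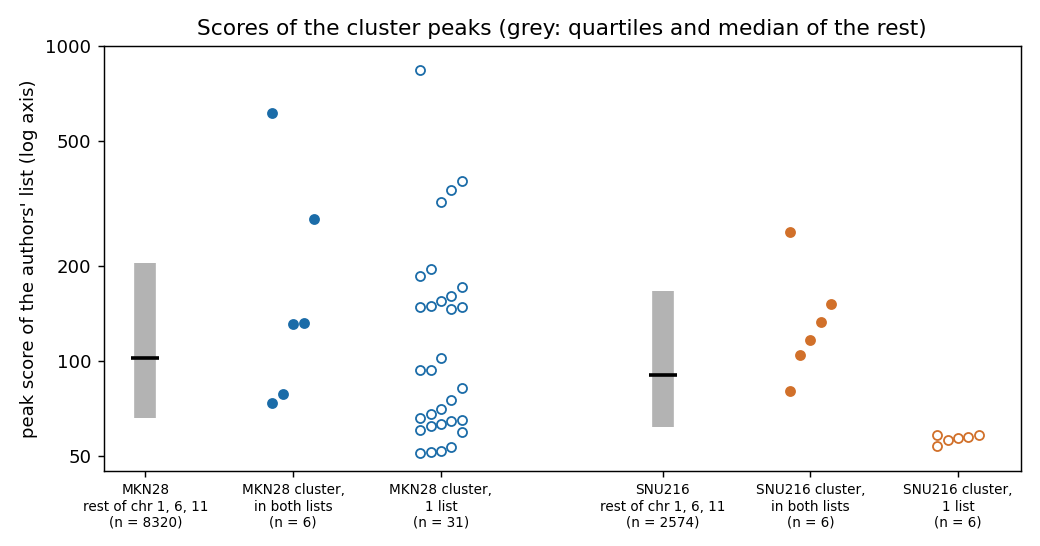
Score in the authors' lists (log axis) of each TEAD4 peak in the olfactory receptor clusters, separately for peaks found in both lists (filled) and in 1 list (open), beside the quartiles (grey) and median (dash) of the rest of chromosomes 1, 6 and 11. The 6 SNU216 peaks found in 1 list all lie between 53.7 and 58.5, below the 6 found in both, while the MKN28 groups overlap.

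Density was higher in the pooled flanks than in the clusters, which were counted here with their 0.7 Mb of centromeric band. These flanks of 1 Mb, without centromeric bands, held 21.4 MKN28 peaks per Mb (18.5 to 24.5) and 6.32 SNU216 peaks per Mb (4.82 to 8.13), both above the clusters' intervals. The 1 Mb below 6p22.1 alone gave 41 of the 203 MKN28 peaks and 20 of the 60 SNU216 peaks of these flanks. Single flanks did not all follow in SNU216. It had 3.53 peaks per Mb in 11q24.1 to 11q24.2 and 0 in the 1 Mb below, and 1.60 in 11p15.4 and 1 in the 1 Mb above. The MKN28 flanks also lay above the rest of the 3 chromosomes, at 16.01 per Mb. From 50 to 100 kb outside the edges, MKN28 had 30.9 peaks per Mb (18.0 to 49.5) and SNU216 16.4 (7.48 to 31.1). From 50 to 100 kb inside, they had 1.67 (0.0422 to 9.29) and 3.33 (0.404 to 12.04). In both lines most peaks from 50 to 100 kb outside lay below the single cluster of 6p22.1, so that bin does not describe the edges in general. Within 50 kb of an edge the sides were not resolved, with 5 MKN28 peaks inside and 7 outside, and 1 and 3 SNU216 peaks. All bins inside the clusters held fewer than 20 peaks. More than 500 kb inside an edge, MKN28 had 6.21 per Mb on 11 peaks, 8 of them in the dense stretch of 11p15.4, and SNU216 had 1.69 on 3 peaks, 2 of them there. Without that stretch the values were 1.797 (0.371 to 5.25) and 0.599 (0.0152 to 3.34), an alternative added after seeing the data. The lists differ in length, and the rest held 16.01 MKN28 and 4.95 SNU216 peaks per Mb. Counts in single flanks were further apart than that in places. In the 1 Mb below 11q24.1 to 11q24.2 MKN28 had 23 peaks and SNU216 had 0, which allows up to 3 per Mb. Below 1q44 they had 24 and 1, and in the 0.351 Mb above it 4 and 3. The 1 Mb below 11q11 to 11q12.1, in a centromeric band, held 0 peaks in both lists. The last MKN28 peak below a lower edge was 4.59 to 255 kb away, leaving out that cluster, and the first MKN28 peak inside was 1.997 to 302 kb from the lower edge over all 6.

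**Figure D5:**
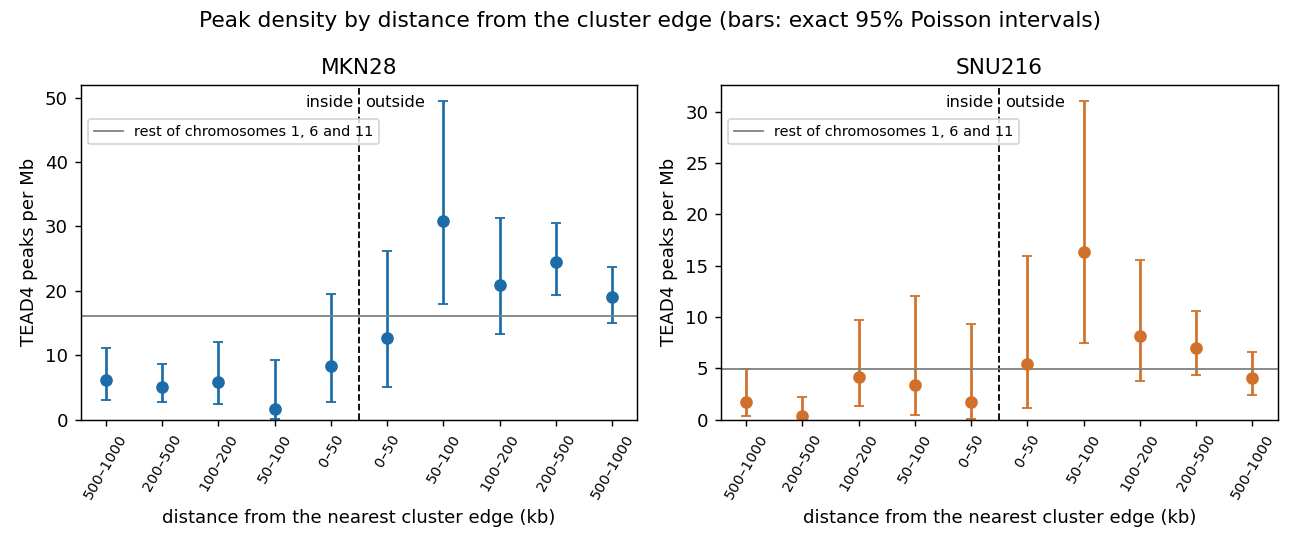
TEAD4 peaks per Mb (vertical axis) by distance from the nearest cluster edge in kb (horizontal axis), inside and outside the 6 olfactory receptor clusters, with exact 95% Poisson intervals; the grey line is the rest of chromosomes 1, 6 and 11. In MKN28 the points inside lie at 1.67 to 8.33 and those outside at 12.7 to 30.9, and in SNU216 they lie at 0.391 to 4.17 and at 4.10 to 16.4. The innermost points include the dense stretch of 11p15.4, and most peaks from 50 to 100 kb outside lie below 6p22.1 in both lines. The inside points keep 0.7 Mb of centromeric band, a kind of band left out of the outside points.

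Peak density also differed between the kinds of chromosome band in which the clusters lie. Giemsa-positive bands of chromosomes 1, 6 and 11, which stain dark and are poor in genes, held 13.0 MKN28 peaks per Mb and 4.28 SNU216 peaks per Mb, and Giemsa-negative bands held 19.9 and 5.82. Against Giemsa-positive bands alone the ratio of the clusters was 0.424 (0.298 to 0.586) in MKN28 and 0.417 (0.215 to 0.731) in SNU216. The clusters of 1q44 and most of 11q24.1 to 11q24.2 are in Giemsa-negative bands. Receptor arrays consist of similar copies, to which short reads may not map uniquely. How much of the arrays was mappable, their copy number in these lines and their input coverage were not tested.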

How the data were processed

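TEAD4 ChIP-seq peak lists of MKN28 and SNU216 were used, 1 library per line. CASAVA 1.8, Bowtie2 2.0.0, MACS and hg19 are named without settings, per the submitters' processing notes, and duplicate handling was not given in the sources used here. Each deposited list holds a position and the score that the authors' peak caller gave each peak. The scale of the score is not stated, and it can rise with depth, so scores were ranked within 1 list only. Input libraries were not analysed here.

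Positions were written 1-based. A peak belonged to a cluster by its midpoint. Chromosome lengths and bands of hg19 came from circlize 0.4.16 (R 4.3.3). Overlap meant at least 1 shared bp. Densities carry exact Poisson intervals, ratios of densities exact conditional binomial intervals, ratios of medians the order-statistic interval of the members' median, and shares Clopper-Pearson intervals, all at 95%. A count of 0 allows up to 3 counts. The counting code was tested on simulated data. Alternatives changed the score threshold, the assignment, the reference sequence, the clusters pooled, the list length and the overlap rule.

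The members and lists were chosen with earlier results of these data known. All SNU216 members are named. In MKN28, where there are more than 15, those overlapping SNU216 and the 3 highest-scoring per cluster are named. The planned comparison with genes needed an hg19 annotation and was not run. Promoter sequences came from RefSeq on GRCh38.p14 and were used only for base content. The software was scipy 1.17.1, numpy 2.4.6, matplotlib 3.10.9 and pandas 2.3.3 under Python 3.11.15.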

Additional observations from a re-analysis of the deposited data

How the results depend on the processing

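Each of the 43 alternative values, over both lines, lay within the 95% interval of its main value. The alternatives drew on the same peaks and these intervals were wide, so this does not show that the results would hold in other libraries. The ratio of cluster to reference density ran from 0.257 to 0.424 over 16 settings in MKN28 and from 0.282 to 0.440 over 15 in SNU216. The lowest came from the flanks as reference, which include the dense 1 Mb below 6p22.1. The highest came from Giemsa-positive bands (MKN28) and from chromosomes 1 to 22 and X (SNU216). Leaving out the dense stretch of 11p15.4 gave 0.273 and 0.304, and leaving out the outer 50 kb of each cluster gave 0.326 and 0.362, both added after seeing the data. With MKN28 cut to the length of the SNU216 list the ratio was 0.274 and the ratio of shares between lines 1.33. The median width of MKN28 members over that of the rest went from 1.03 to 0.975 at a score of at least 100. No paired analysis was possible because there is 1 library per group, without replicate numbers. Depth is unknown, which limits statements on sites found in 1 list.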

Other observations

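The weak SNU216 peaks of the clusters can be set beside weak SNU216 peaks elsewhere, a comparison chosen after the values were seen. Of all 1346 SNU216 peaks with a score from 53.73 to 58.45, the range of the 6 cluster peaks without an MKN28 partner, 426 (31.6%) overlapped an MKN28 peak. Scores below 60, a bound just above the scores of those 6 peaks, were held by 6 of the 12 SNU216 members (50%, 21.1 to 78.9). That interval held the share of the whole SNU216 list, 23.2%. In MKN28, 5 of the 37 members (13.5%) had scores below 60, against 18.3% of the whole MKN28 list. Among the 6 SNU216 peaks without a partner, the distance to the nearest MKN28 peak ran from 1.04 to 157 kb, with a median of 34.0 kb. Among the 31 MKN28 peaks without a partner, the distance to the nearest SNU216 peak ran from 6.71 to 1166 kb, with a median of 136 kb.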
